A study of Mus musculus with 18 samples.

Results

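De novo fatty acid synthesis was followed through 10 mouse genes: Acly, Acaca, Fasn, Scd1, Scd2, Elovl6, Me1, Thrsp, Srebf1 and Slc25a1. The genes were chosen by name, and all probes carrying a member's current or older symbol were taken, which gave 15 of the 41174 probes and 10 of the 28919 genes or unnamed transcripts on the array. Acaca was listed under its older symbol Acac, Me1 under Mod1, and the second probe of Acly under A730098H14Rik. Gene expression had been measured on 2-colour Agilent arrays in whole mammary tissue, flash frozen, from female mice of the inbred FVB/N strain. The 9 RNA samples were 2 normal mammary glands, 2 pools of NIC tumours, each holding 5 tumours, and 5 single ErbB2 KI tumours, where KI is a knock-in of ErbB2, a receptor tyrosine kinase. The labels do not expand NIC and name no age, treatment, stage or transgene promoter for any group. The RNA name of normal gland 2 ends in PI and that of the other gland does not, and the labels do not explain this suffix. A pool averages over its tumours, and a single tumour does not.

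Cells make fatty acids from citrate that leaves the mitochondrion. Citrate is split to acetyl-CoA in the cytosol, acetyl-CoA is carboxylated to malonyl-CoA, and fatty acid synthase joins these units to palmitate with reducing power from NADPH, after which other enzymes lengthen and desaturate the chain. In the mammary gland this pathway is known both from adipocytes of the fat pad and from the secretory epithelium, which makes milk fat during lactation.

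Each level below is a log2 ratio of the sample over a commercial universal mouse reference RNA, as the mean of 2 arrays with exchanged dyes. A level of 1 is 2-fold above the reference, and levels of different genes are not compared. Where scaling all 18 arrays to 1 median absolute deviation, called equal-spread scaling below, or quantile normalizing them together ended the call of a named gene or turned a called difference, that value is given. The replicate was the RNA sample, its number is a name only, and the labels do not say whether samples came from separate animals or litters, so the p-values reflect how far these RNA samples spread, which may be technical. Their number limits the precision. The KI arrays lie in a value table of their own, under another platform record than the rest. Table, platform record and KI group therefore cannot be told apart. Interquartile ranges of the array columns ran from 0.422 to 0.562 for KI, from 0.514 to 0.559 for NIC pools and from 0.761 to 0.970 for normal glands. The wider spread was thus that of the gland arrays, which share a value table with the NIC arrays. All 15 probes were well above background in the sample channel on all 10 KI arrays, and none was saturated there.

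Members called against normal glands were lower in tumours, except Srebf1 in NIC pools. NIC pools differed from normal glands in 3 of the 10 genes, with Srebf1, a transcription factor of lipid synthesis, higher and Acaca and Elovl6 lower. KI tumours differed from normal glands in 5 genes, all lower: Acaca, Fasn, Elovl6, Me1 and Slc25a1. KI tumours differed from NIC pools in Me1 alone, which was lower. In the fit of all 9 samples, which gave the KI comparisons, Fasn and Slc25a1 were also called lower in NIC pools and Srebf1 was not called. A call was an adjusted p under 0.05 in limma with Benjamini-Hochberg adjustment over all 28919 genes.

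The share called among all genes was 18.6% in NIC against normal (8.79% higher, 9.81% lower), 42.7% in KI against normal (17.8% higher, 24.9% lower) and 6.21% in KI against NIC (2.93% higher, 3.28% lower). With 10 genes, counts of 3, 5 and 1 lie near these shares and say little about the members as a set. The median difference of the members was −1.18 in NIC against normal, −1.55 in KI against normal and −0.38 in KI against NIC, where that of all genes was −0.057, −0.026 and 0.0035. The first pair of comparisons shares both normal glands. In bulk tissue, fewer cells of a type and less RNA per cell cannot be told apart, and this holds for every difference below.

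**Figure D1:**
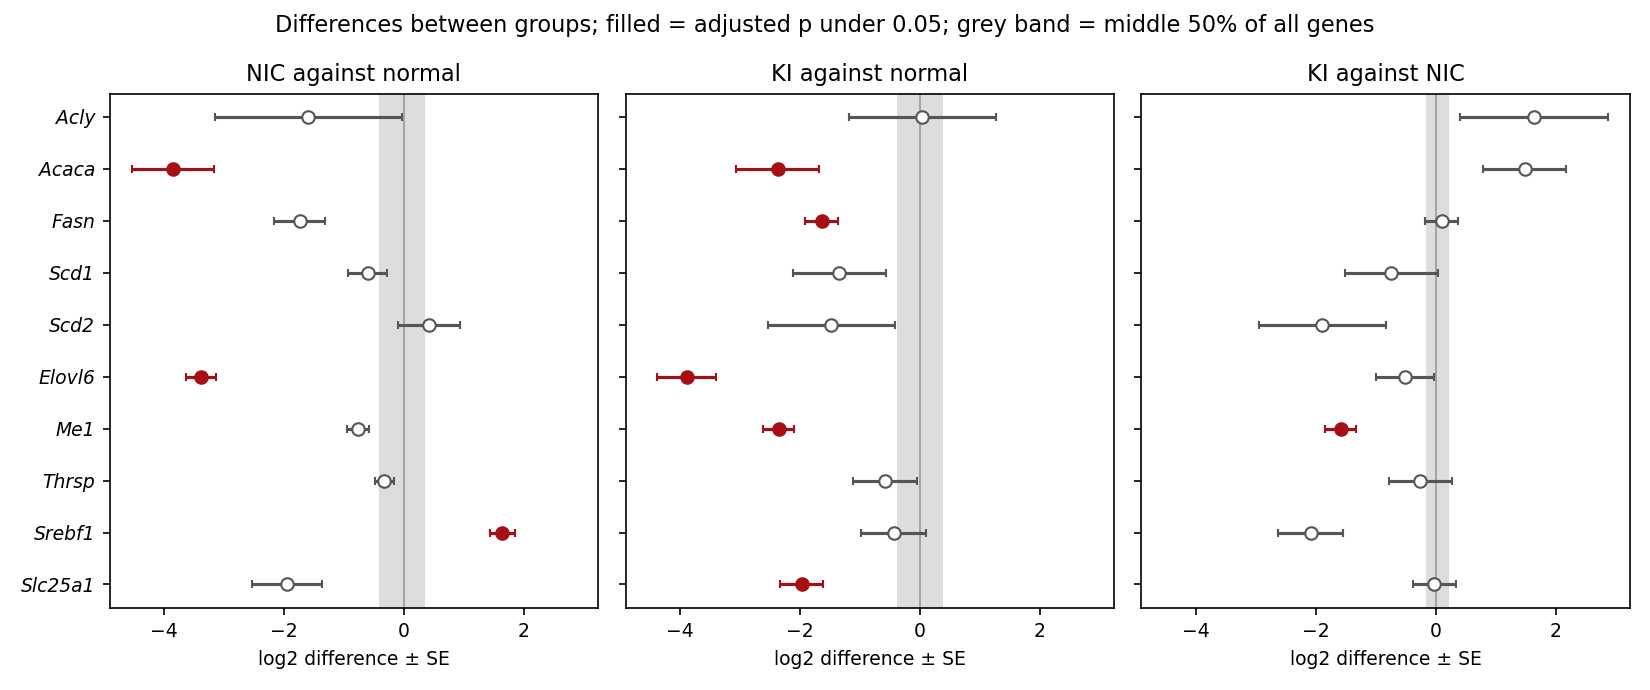
Log2 differences between groups (horizontal axis, with the standard error of the limma fit) for the 10 genes (vertical axis). Filled points have an adjusted p under 0.05 and the grey band spans the middle 50% of all genes; Elovl6 lies far to the left of it in both tumour comparisons with normal glands, and Srebf1 is the one filled point to the right.

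The windows around the RefSeq start sites of the 5 genes called lower in KI tumours are given here, to set the calls beside the sequence at their starts. RefSeq start-site windows of build GRCm38.p6, from 250 bases before to 50 after the start, were matched by symbol for 8 of the 10 members (11 windows), not for Scd1 and Scd2. Acaca, Fasn, Elovl6 and Slc25a1 have 1 window each and Me1 has 2, and they are printed 5′ to 3′ on the gene's strand. Capitals mark matches, on either strand, to CCAAT, the box of the factor NF-Y, to GGGCGG, the GC box of Sp1, and to CACGTG, an E-box.
Acaca (chr11:84195188-84195487, plus strand): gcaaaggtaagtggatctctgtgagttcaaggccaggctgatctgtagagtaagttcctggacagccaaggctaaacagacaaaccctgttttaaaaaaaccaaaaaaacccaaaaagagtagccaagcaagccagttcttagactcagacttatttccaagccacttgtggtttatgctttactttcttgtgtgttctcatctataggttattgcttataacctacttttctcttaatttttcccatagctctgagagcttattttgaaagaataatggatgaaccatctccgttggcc
Fasn (chr11:120824498-120824797, minus strand): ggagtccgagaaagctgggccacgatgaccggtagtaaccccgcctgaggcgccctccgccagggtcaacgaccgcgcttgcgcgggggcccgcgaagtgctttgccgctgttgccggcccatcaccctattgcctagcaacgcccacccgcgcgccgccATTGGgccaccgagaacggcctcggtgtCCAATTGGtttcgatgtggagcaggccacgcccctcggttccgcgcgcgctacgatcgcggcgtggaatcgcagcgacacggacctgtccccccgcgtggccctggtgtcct
Elovl6 (chr3:129532136-129532435, plus strand): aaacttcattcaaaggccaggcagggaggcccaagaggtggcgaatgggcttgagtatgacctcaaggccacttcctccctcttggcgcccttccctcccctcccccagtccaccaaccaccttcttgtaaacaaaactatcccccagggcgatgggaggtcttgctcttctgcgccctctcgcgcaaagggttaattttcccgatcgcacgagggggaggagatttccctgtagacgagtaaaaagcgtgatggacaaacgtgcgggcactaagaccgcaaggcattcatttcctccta
Slc25a1 (chr16:17928170-17928469, minus strand): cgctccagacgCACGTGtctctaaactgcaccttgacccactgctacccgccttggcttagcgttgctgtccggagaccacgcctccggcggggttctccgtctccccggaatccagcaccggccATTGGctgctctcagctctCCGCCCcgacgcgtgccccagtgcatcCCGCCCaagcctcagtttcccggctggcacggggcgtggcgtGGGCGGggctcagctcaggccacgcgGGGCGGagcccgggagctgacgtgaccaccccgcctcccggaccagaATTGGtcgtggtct
Me1 window 1 (chr9:86687228-86687527, minus strand): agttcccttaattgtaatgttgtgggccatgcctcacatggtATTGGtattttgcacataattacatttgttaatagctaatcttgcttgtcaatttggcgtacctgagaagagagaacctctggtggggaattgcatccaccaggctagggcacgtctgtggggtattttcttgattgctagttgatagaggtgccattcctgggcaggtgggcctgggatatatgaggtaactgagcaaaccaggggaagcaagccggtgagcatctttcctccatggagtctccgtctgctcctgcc
Me1 window 2 (chr9:86695865-86696164, minus strand): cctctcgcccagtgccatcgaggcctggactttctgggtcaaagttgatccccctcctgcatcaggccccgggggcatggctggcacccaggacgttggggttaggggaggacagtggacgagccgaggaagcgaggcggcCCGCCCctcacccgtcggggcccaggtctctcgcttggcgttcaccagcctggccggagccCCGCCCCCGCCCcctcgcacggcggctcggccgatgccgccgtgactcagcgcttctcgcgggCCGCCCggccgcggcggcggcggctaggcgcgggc

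These windows differ in what they hold. The Fasn window has 3 matches to CCAAT, at −90, −62 and −59 from the start site, and the last 2 overlap as a palindrome. The Slc25a1 window has 2 matches to CCAAT, 4 to GGGCGG and 1 to CACGTG. Of the Me1 windows, the first has 1 match to CCAAT and the second 4 to GGGCGG. The Acaca and Elovl6 windows have none of these motifs. Each of these genes has 1 window, at 1 annotated start, and sequence outside it was not searched. Over all 32851 windows of the same length, 37.4% held CCAAT, 35.7% GGGCGG and 7.15% CACGTG. Among the 11 windows of members, 7 held CCAAT and 5 held GGGCGG. The sterol regulatory core TCACCCCAC, on either strand, was in 0.551% of all windows, and the looser TCACNCCAC, which includes it, in 1.24%. None of the 11 held either, which says only that these letters are not in these windows.

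Citrate export, acetyl-CoA supply and NADPH supply come first in the pathway. Slc25a1 is the mitochondrial carrier that exports citrate. Its level was 2.59 and 1.04 in the normal glands, −0.20 and −0.065 in the NIC pools, and −0.078, −0.27, 0.12, −0.20 and −0.33 in the KI tumours. Tumours of both kinds lay near the reference, and both normal glands were above all of them. In KI tumours Slc25a1 was 3.90-fold below normal glands, a log2 difference of −1.97 ± 0.36 (SE, limma adjusted p = 0.00414). The NIC difference was nearly as large, at −1.94 ± 0.58, but did not pass (limma adjusted p = 0.10), with the normal glands 1.54 log2 units apart. That comparison was fitted on its own 4 samples. In the fit of all 9 samples, which gave the KI value, the NIC difference passed (limma adjusted p = 0.0111), as it did with the RNA sample as a random block (0.0138) and without either normal gland (−1.17, 0.0404, and −2.72, 0.0328).

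Acly, ATP citrate lyase, splits the exported citrate to cytosolic acetyl-CoA. It was at 3.43 in normal gland 1 but −0.76 in normal gland 2, at −0.14 and −0.38 in the NIC pools, and at 0.53, 2.38, 0.10, 0.67 and 3.23 in KI tumours 1 to 5. All 7 tumour samples lay between the normal glands, which were 4.19 log2 units apart, and every KI tumour was above both NIC pools. No comparison of Acly passed. The limma differences were −1.59 ± 1.56 in NIC against normal (adjusted p = 0.51), 0.047 ± 1.23 in KI against normal (0.98) and 1.64 ± 1.23 in KI against NIC (0.50). Without normal gland 1 the NIC difference turned to 0.50, and without normal gland 2 the KI difference turned to −2.05. The second Acly probe, named A730098H14Rik in the files, stayed between −0.055 and 0.80 in all 9 samples and had limma differences of 0.27 ± 0.19, 0.22 ± 0.24 and −0.056 ± 0.24, none of which passed.

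Me1, cytosolic malic enzyme, supplies NADPH. Its level was 3.53 and 3.11 in the normal glands, 2.5 and 2.61 in the NIC pools, and 0.51, 1.37, 1.23, 1.15 and 0.60 in the KI tumours. The 3 groups did not overlap and lay in the order normal, NIC, KI. KI tumours were 5.09-fold below normal glands (log2 difference −2.35 ± 0.26, limma adjusted p = 0.000614) and 3.0-fold below NIC pools (−1.58 ± 0.26, limma adjusted p = 0.0172). The step from normal glands to NIC pools was smaller and did not pass (−0.76 ± 0.18, limma adjusted p = 0.0693), and under equal-spread scaling it turned to 0.45. After quantile normalization the KI against NIC difference was −1.29 and did not pass (limma adjusted p = 0.0645). Since the KI against NIC difference is also the gap between the tumour effects of both kinds against the same normal glands, Me1 is the member for which that gap passed. The gap was not called without NIC pool 1 (limma adjusted p = 0.0974) or without NIC pool 2 (0.111). A second Me1 probe ran alongside, from 3.63 and 2.56 in normal glands and 2.54 and 2.48 in NIC pools to between 0.64 and 1.68 in KI tumours, with limma differences of −1.88 ± 0.34 in KI against normal (adjusted p over all probes 0.00454) and −1.29 ± 0.34 in KI against NIC (0.0688).

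**Figure D2:**
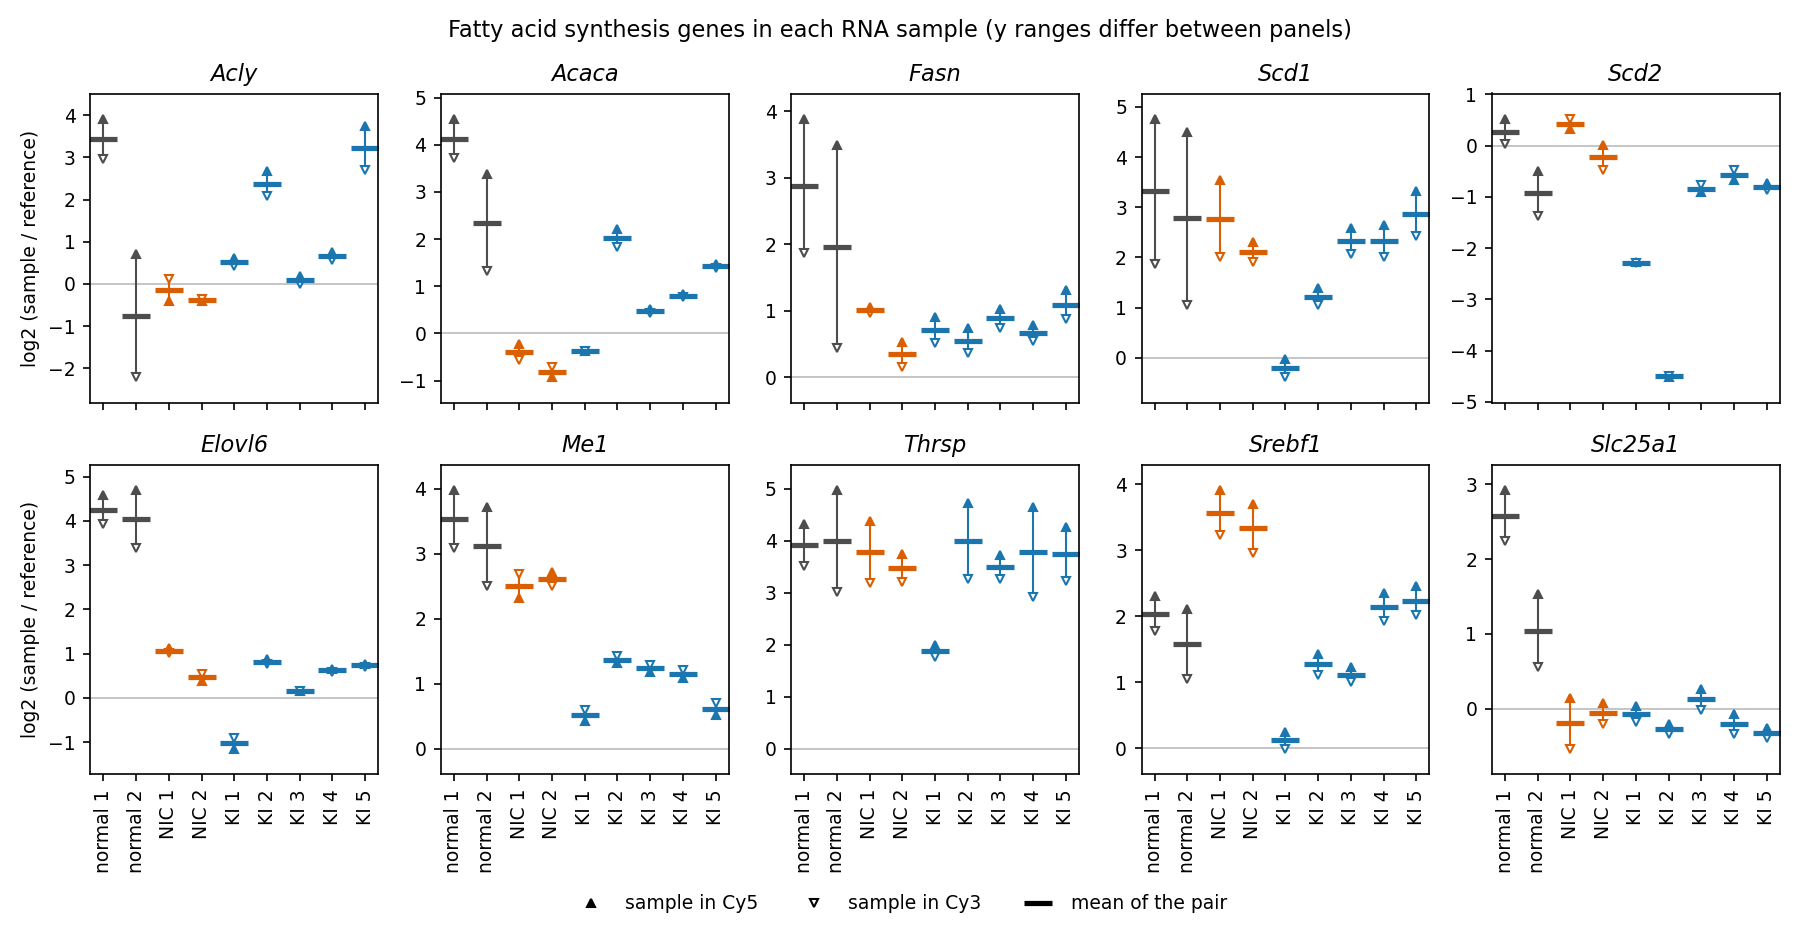
Log2 ratio of sample over reference (vertical axis, range differing by panel) for the 10 genes in each RNA sample (horizontal axis); triangles are single arrays by the dye of the sample, bars are the mean of the pair. In the Me1 panel KI tumours lie below NIC pools and glands, the Srebf1 panel peaks in the NIC pools at 3.57 and 3.34, and the arrays of normal gland 2 lie far apart in several panels.

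The core enzymes are acetyl-CoA carboxylase and fatty acid synthase. Acaca, acetyl-CoA carboxylase 1, makes malonyl-CoA, the committed step. Its most intense probe read 4.13 and 2.35 in the normal glands, −0.40 and −0.82 in the NIC pools, and −0.37, 2.02, 0.48, 0.80 and 1.44 in the KI tumours. Both normal glands were above all tumours, and KI 2 came within 0.331 of the lower gland. The limma difference was −3.85 ± 0.68 in NIC against normal, a 14.4-fold lower level (adjusted p = 0.0421; on Cy3 arrays alone −3.16, 0.124; without NIC pool 1 or 2, 0.176 and 0.184), and −2.37 ± 0.69 in KI against normal, 5.16-fold (adjusted p = 0.0274). The KI call was lost without normal gland 1 (limma difference −1.48, adjusted p = 0.208), KI 3 (0.0520) or KI 4 (0.0524), under equal-spread scaling (−1.22, 0.219), after quantile normalization (−2.08, 0.0745) and on Cy3 arrays alone (−1.71, 0.106). KI tumours were all above the NIC pools, but KI 1, at −0.37, was only just above NIC pool 1, at −0.40. The KI against NIC difference was 1.48 ± 0.69 and did not pass (limma adjusted p = 0.26).

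The 2 other Acaca probes did not show differences of this size. One lay between −0.25 and 0.53 over the 9 samples and the other between −0.11 and 0.57. In NIC against normal their limma differences were −0.35 ± 0.17 and −0.17 ± 0.11, and neither passed. For KI against normal the first gave −0.47 ± 0.11 (limma adjusted p over all probes 0.0147) and the second −0.081 ± 0.20 (0.78). In KI against NIC they gave −0.11 ± 0.11 and 0.085 ± 0.20, and neither passed. Which transcripts each probe reads was not tested, so the Acaca values hold for the most intense probe only.

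Fasn, fatty acid synthase, builds palmitate. Its level was 2.87 and 1.96 in the normal glands, 1.01 and 0.35 in the NIC pools, and 0.71, 0.55, 0.89, 0.67 and 1.09 in the KI tumours. Both normal glands were above all 7 tumour samples, and 4 of the 5 KI tumours lay between the NIC pools. Fasn fell in KI tumours 3.11-fold, a log2 difference of −1.64 ± 0.28 (limma adjusted p = 0.00325). The NIC difference was of like size, −1.74 ± 0.43, and did not pass in the fit of its own 4 samples (limma adjusted p = 0.0719), but passed in the fit of all 9 that gave the KI value (0.00675). KI and NIC differed by 0.10 ± 0.28 (limma adjusted p = 0.88).

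A second Fasn probe had higher values in the glands, 3.73 and 3.19, with 0.57 and 0.016 in the NIC pools and 0.54 to 1.09 in the KI tumours. Its limma differences were −3.17 ± 0.30 in NIC against normal (adjusted p over all probes 0.0176) and −2.61 ± 0.21 in KI against normal (0.000243). Both probes had the glands on top; in NIC against normal only the second passed. With the mean of both probes the NIC difference was −2.45 (limma adjusted p = 0.0277). On arrays with the sample in Cy3 only, the main probe's KI difference shrank to −0.55 (limma adjusted p = 0.295), and under equal-spread scaling it was −0.77 (0.0537).

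**Figure D3:**
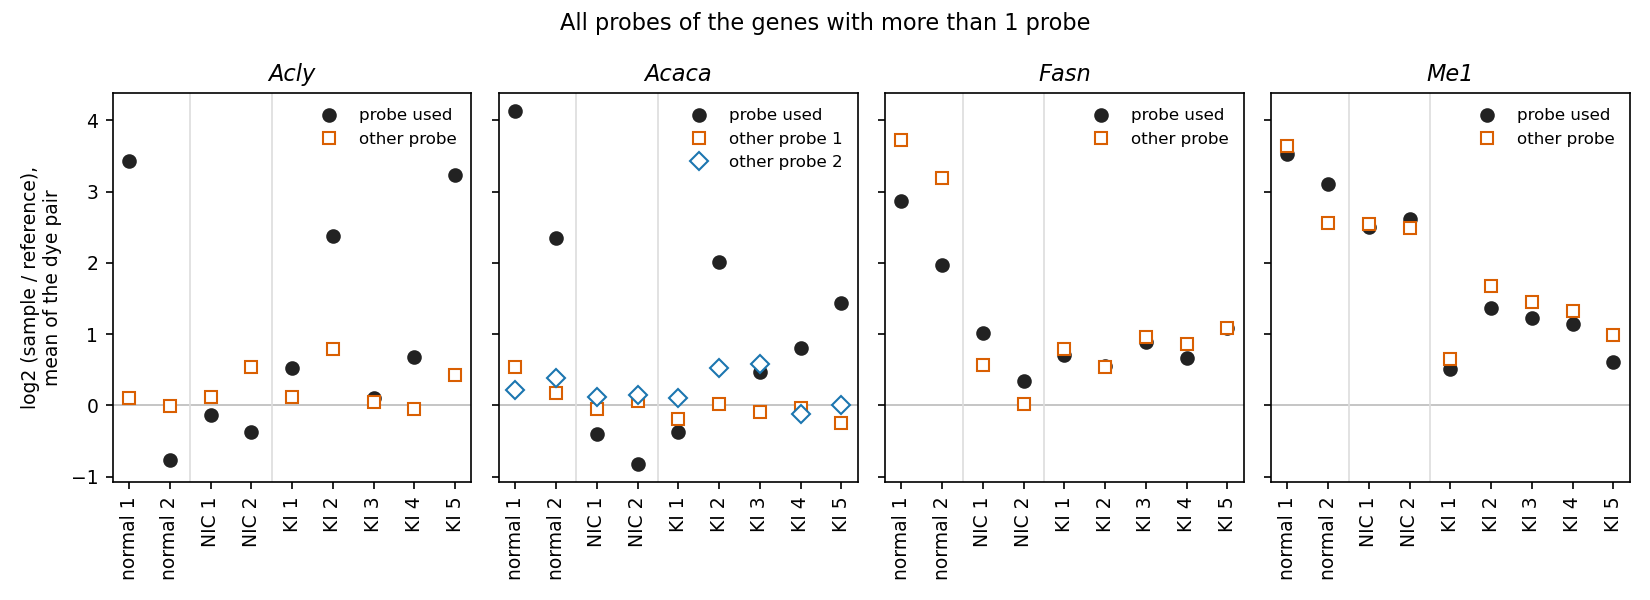
Log2 ratio of sample over reference (vertical axis, mean of the dye pair) for every probe of the 4 genes with more than 1 probe, by RNA sample (horizontal axis). Both probes of Fasn and of Me1 are highest in the glands. The second Fasn probe lies above the probe used in the glands and below it in the NIC pools. The other probes of Acly and Acaca stay within 0.80 of the reference where the probe used ranges up to 3.43 and 4.13.

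Chain elongation and desaturation follow palmitate. Elovl6, the elongase that takes palmitate to stearate, was at 4.25 and 4.04 in the normal glands, 1.07 and 0.47 in the NIC pools, and −1.02, 0.82, 0.15, 0.62 and 0.73 in the KI tumours. The glands stood at least 2.97 log2 units above every tumour sample, the widest such gap of any member in KI or NIC tumours against normal glands. Elovl6 fell 10.4-fold in NIC pools (log2 difference −3.38 ± 0.25, limma adjusted p = 0.0124) and 14.8-fold in KI tumours (−3.88 ± 0.49, limma adjusted p = 0.000989). The KI call held in all 21 alternative analyses, and the NIC call in 11 of 13, lost without either NIC pool (limma adjusted p = 0.0904 and 0.0921). The size depended on scaling: under equal-spread scaling the log2 differences were −1.99 in NIC pools and −2.51 in KI tumours. KI and NIC overlapped and differed by −0.51 ± 0.49 (limma adjusted p = 0.61).

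Scd1 and Scd2 are stearoyl-CoA desaturases, which place a double bond in the chain. Scd1 was at 3.32 and 2.78 in the normal glands, 2.78 and 2.11 in the NIC pools, and −0.21, 1.22, 2.33, 2.33 and 2.88 in the KI tumours. KI 1 and KI 2 were below all other samples, and KI 5 reached the level of the glands. No Scd1 difference passed: −0.60 ± 0.33 in NIC against normal (limma adjusted p = 0.26), −1.34 ± 0.78 in KI against normal (0.20) and −0.74 ± 0.78 in KI against NIC (0.65). Scd1 had the largest gap between dyes of the 10 genes in either gland: normal gland 2 read 4.50 in Cy5 and 1.05 in Cy3, normal gland 1 4.75 and 1.88. With Cy5 arrays alone the KI difference from normal was −2.64 and passed (limma adjusted p = 0.0407). The NIC difference turned to 0.50 with Cy3 arrays alone and to 0.46 under equal-spread scaling, and did not pass (limma adjusted p = 0.378 and 0.279).

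Scd2 was at 0.28 and −0.93 in the normal glands, 0.42 and −0.23 in the NIC pools, and −2.28, −4.50, −0.84, −0.58 and −0.80 in KI tumours 1 to 5. All KI tumours were below both NIC pools, and 3 of them lay within the span of the glands. KI 2 was lowest by 2.22 log2 units, and both of its arrays gave that level (−4.52 in Cy5 and −4.48 in Cy3). The limma differences were 0.42 ± 0.52 in NIC against normal (adjusted p = 0.60), −1.47 ± 1.06 in KI against normal (0.30) and −1.89 ± 1.06 in KI against NIC (0.35). None passed, with a KI spread of 1.66 (SD, n = 5).

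The last members act on the pathway as regulators. Srebf1 encodes SREBP-1, a transcription factor that drives lipogenic genes. Its level was 2.04 and 1.58 in the normal glands, 3.57 and 3.34 in the NIC pools, and 0.12, 1.27, 1.12, 2.13 and 2.24 in the KI tumours. NIC pools were above every other sample, and KI tumours lay on both sides of the glands. Srebf1 rose 3.13-fold in NIC pools (log2 difference 1.64 ± 0.21, limma adjusted p = 0.0252). The call was lost on Cy3 arrays alone (limma adjusted p = 0.0698), in a fit of all 9 samples (0.0852) and without NIC pool 1 (0.147) or NIC pool 2 (0.126). KI against normal was −0.43 ± 0.54 (limma adjusted p = 0.56), and 0.36 under equal-spread scaling. KI against NIC was −2.08 ± 0.54, 4.22-fold, and did not pass (limma adjusted p = 0.068). With KI values recomputed from scanner intensities it was −2.12 and passed (limma adjusted p = 0.0376).

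Thrsp, also called Spot 14, is a nuclear protein tied to lipogenesis in fat, liver and lactating gland. Its level was 3.92 and 3.99 in the normal glands, 3.79 and 3.47 in the NIC pools, and 1.88, 4.0, 3.5, 3.78 and 3.74 in the KI tumours. KI 1 was below all other samples, by 1.62 log2 units from the next KI tumour. The limma differences were −0.32 ± 0.15 in NIC against normal (adjusted p = 0.21), −0.58 ± 0.53 in KI against normal (0.42) and −0.25 ± 0.53 in KI against NIC (0.84). Equal-spread scaling turned the NIC difference to 1.13, which passed (limma adjusted p = 0.0194), and the KI difference from normal to 1.19, which did not (0.177). Without KI 1, KI against NIC was 0.12. Srebf1 was thus called higher in the same pools in which Acaca and Elovl6 were called lower.

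Single KI tumours differed among themselves in most of these genes. The SD over the 5 tumours exceeded the all-gene median of 0.154 in all 10 genes and was at or above the 95th percentile of all genes in 7. It was 1.66 for Scd2, 1.35 for Acly, 1.23 for Scd1, 0.92 for Acaca, 0.86 for Srebf1 and Thrsp and 0.76 for Elovl6. Fasn (SD 0.21) and Slc25a1 (0.18), both called lower than in normal glands, were the most even. Among the 14459 genes with a signal above the median, which include all 10 members, 6 remained at or above that percentile.

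KI 1 had the lowest level of the 5 for 6 genes: Acaca, Scd1, Elovl6, Me1, Thrsp and Srebf1. Its deviation from the median tumour was −2.54 for Scd1, −1.86 for Thrsp, −1.65 for Elovl6 and −1.15 for Srebf1. KI 2 and KI 5 were each highest for 4 genes, with Acly at 1.71 and 2.55 above the median tumour. Within KI 2 the genes went opposite ways, Acly and Acaca up (1.71 and 1.22) and Scd1 and Scd2 down (−1.11 and −3.67). The median of 18 milk and lactation genes was also highest in KI 2 and KI 5 (3.16 and 2.58, against 1.58 to 1.93 in the other KI tumours), and the median of skeletal muscle markers was 0.935 in KI 2 and at most 0.00021 in the other KI tumours. The part of either in the members' levels was not tested.

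**Figure D4:**
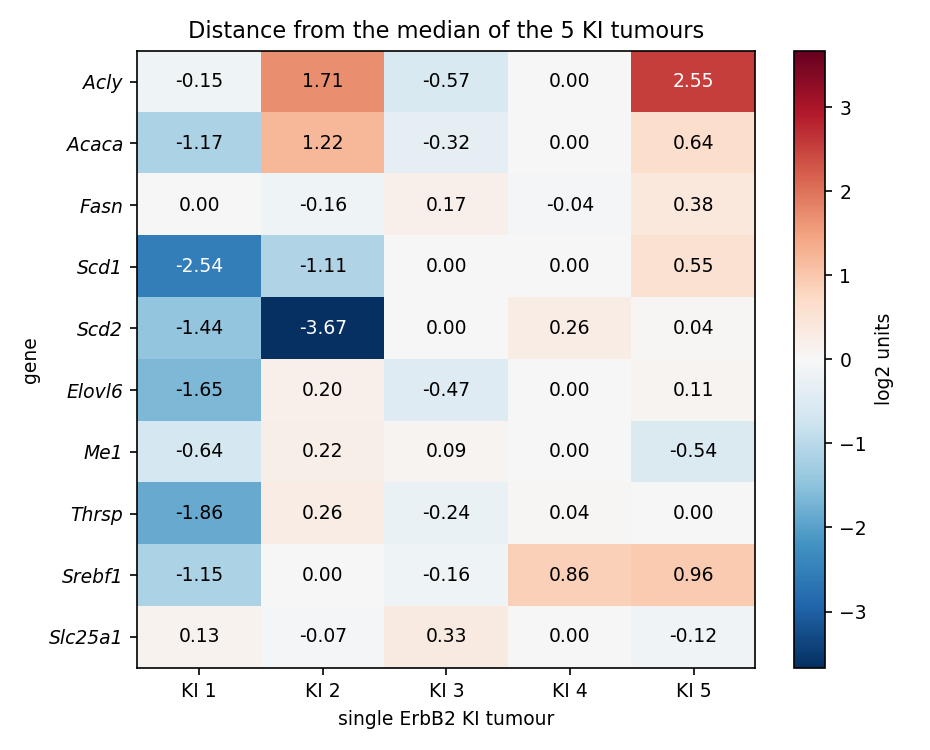
Each cell gives, for a gene (row) in a KI tumour (column), the log2 distance from the median of the 5 KI tumours, with blue below and red above. KI 1 is blue for most genes, KI 2 holds the lowest cell (Scd2, −3.67), and the rows of Fasn and Slc25a1 are pale throughout.

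The dye pairs set limits on the normal glands. The median absolute gap between the Cy5 and the Cy3 array over all genes was 0.194 in normal gland 1 and 0.320 in normal gland 2, and between 0.156 and 0.229 in the tumours. For the 10 genes it was 0.812 and 1.62 in the glands, against 0.205 to 0.437 in the tumours. Cy5 gave the higher value for every member in both glands. In normal gland 2, Acly read 0.70 in Cy5 and −2.22 in Cy3, and Fasn 3.49 and 0.44. The pair mean was used throughout, since a dye effect of equal size cancels in it.

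Related pathways were described from lists of 191 measured genes, written with earlier results of these data known. Each list count below is to be read beside the shares called over all genes. Against normal glands these were 8.79% higher and 9.81% lower in NIC pools, and 17.8% higher and 24.9% lower in KI tumours. In KI against NIC they were 2.93% higher and 3.28% lower. List counts under equal-spread scaling have other shares beside them. There, of all 28919 genes, 2723 were called higher and 3361 lower in NIC pools against normal glands. In KI tumours against normal glands, 2954 were called higher and 5180 lower under that scaling. Of 23 further genes of citrate, acetyl-CoA and NADPH supply, 8 were lower and 1 higher in NIC pools and 16 lower and 1 higher in KI tumours, both against normal glands, with median differences of −1.22 and −1.23 (−0.77 and −0.63 under equal-spread scaling, with 8 and 11 lower). Acss2, which makes acetyl-CoA from acetate, fell 11.4-fold in NIC pools and 11.7-fold in KI tumours (limma adjusted p = 0.0250 and 0.00227). Pcx, pyruvate carboxylase, fell 5.34-fold and 7.58-fold (limma adjusted p = 0.0251 and 0.000132). Citrate synthase, Cs, fell 4.15-fold in NIC pools (limma adjusted p = 0.0186), and Pdhb, a pyruvate dehydrogenase subunit, fell 5.00-fold in KI tumours (limma adjusted p = 0.00215). None of the 23 was called between KI and NIC.

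Further elongation, desaturation, activation and thioesterase genes were mixed. Of 31, 11 were lower and 1 higher in NIC pools, and 10 lower and 3 higher in KI tumours (5 lower and 4 higher under equal-spread scaling). Acsl4, an acyl-CoA synthetase that favours arachidonate, rose 18.1-fold in NIC pools and 13.7-fold in KI tumours (limma adjusted p = 0.00893 and 9.3e-05). Elovl3, an elongase known from brown fat and skin, fell 13.1-fold and 12.4-fold (limma adjusted p = 0.0120 and 1.7e-05). Fads3, a desaturase family gene, fell 16.1-fold in NIC pools (limma adjusted p = 0.0187). Acacb, the mitochondrial carboxylase isoform, fell 18.9-fold in KI tumours (limma adjusted p = 0.000245), while its second probe differed by 0.16.

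Lipogenic regulators moved in both directions. Of 34, 7 were higher and 7 lower in NIC pools, and 10 higher and 11 lower in KI tumours, against normal glands (5 and 10 in KI tumours under equal-spread scaling). Pparg, the main adipocyte transcription factor, fell 20.7-fold and 21.2-fold (limma adjusted p = 0.00815 and 1.8e-05), and Pnpla3, a lipid droplet lipase, 23.5-fold and 20.3-fold (0.0139 and 0.00103). Insig1, which holds SREBP in the endoplasmic reticulum, fell 4.98-fold in KI tumours (limma adjusted p = 0.0119). Sp1, a factor that binds GC boxes, was 6.83-fold higher in NIC pools than in glands (limma adjusted p = 0.0103) and 1.75-fold lower in KI than in NIC (0.0466; 0.0607 under equal-spread scaling, 0.126 after quantile normalization). Between KI and NIC, 1 of the 34 was higher (Fgf21, a hormone, 1.76-fold, limma adjusted p = 0.0273; 0.259 after quantile normalization) and 2 lower (Sp1, and the kinase subunit Prkaa2 by 1.75-fold, limma adjusted p = 0.0024).

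Cholesterol synthesis is, like fatty acid synthesis, under the control of SREBP factors. Of 23 genes, 2 were higher and 2 lower in NIC pools, 1 higher and 5 lower in KI tumours against normal glands, and 2 lower in KI against NIC. The list's median in KI against normal was 0.15, and −0.315 under equal-spread scaling and −0.409 after quantile normalization. Stard4, a sterol carrier, was 6.91-fold higher in NIC pools (limma adjusted p = 0.0134) and 2.65-fold lower in KI than in NIC (0.0380). These were log2 differences of 2.79 and −1.41. The other Stard4 probes differed by 1.15 and 1.69 in NIC pools against glands, and by −0.03 and −0.46 in KI against NIC. Dhcr7, of the last step of cholesterol synthesis, was 2.14-fold higher in NIC pools (limma adjusted p = 0.0194). Lss, lanosterol synthase, was 1.72-fold lower in KI than in NIC (limma adjusted p = 0.0499), with its other probes at −0.31 and −0.34. Pmvk and Nsdhl, enzymes of the same route, fell 3.51-fold and 3.15-fold in KI tumours against glands (limma adjusted p = 0.00877 and 0.0130; Nsdhl 0.0694 under equal-spread scaling). The other Nsdhl probes differed by −1.07 and −0.47 there. The most intense probe of Hmgcs1, HMG-CoA synthase, fell 5.60-fold in NIC pools (limma adjusted p = 0.00794) and 4.37-fold in KI tumours (0.00184), whereas its other probes differed by 0.97 and −0.30 and by 0.85 and 0.21.

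Genes of fat storage and uptake were mostly lower or not called. Of 18 triglyceride synthesis genes, 8 were lower and 1 higher in NIC pools, and 9 lower and 3 higher in KI tumours. Dgat2, of the last step, fell 22.2-fold and 40.0-fold (limma adjusted p = 0.0143 and 5.5e-05), Gpat3, of the first step, 20.3-fold and 7.43-fold (0.00808 and 0.00103), and Mogat1 5.83-fold and 7.59-fold (0.0113 and 3.3e-05). The Dgat2 log2 differences were −4.48 and −5.32, and −2.99 and −3.99 under equal-spread scaling. Its other probes also fell, but by less than the probe used in both comparisons. Those of Mogat1 fell by more. In KI against NIC, Mogat2 alone was called, 1.99-fold higher (limma adjusted p = 0.0206), and after quantile normalization it was not (0.153). Of 18 uptake and lipolysis genes, 6 were lower and 2 higher in NIC pools, and 8 lower and 1 higher in KI tumours (under equal-spread scaling 5 lower and 5 higher in NIC pools, 4 lower and 1 higher in KI tumours). Cd36, a fatty acid transporter, fell 64.7-fold and 74.0-fold (limma adjusted p = 0.00776 and 0.00159), and Lpl, lipoprotein lipase, 18.4-fold and 12-fold (0.0220 and 0.00295). The Cd36 log2 differences were −6.02 and −6.21, and −4.58 and −5.02 under equal-spread scaling. Its second probe gave −4.85 and −4.29. The second Lpl probe gave −4.70 and −4.06, where the probe used gave −4.20 and −3.59. Fabp5 fell 8.88-fold in NIC pools (limma adjusted p = 0.0234) and Pnpla2, the first triglyceride lipase, 4.72-fold in KI tumours (0.00512; 0.128 under equal-spread scaling). Slc27a1, a fatty acid transporter, was 1.73-fold lower in KI than in NIC (limma adjusted p = 0.00711).

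Fatty acid oxidation had the largest share of lower calls of these pathway lists. Of 27 genes, 17 were lower in NIC pools and 20 in KI tumours, with none higher and median differences of −1.48 and −1.77. Under equal-spread scaling 14 were lower and 1 higher in NIC pools and 17 lower in KI tumours, with medians of −0.818 and −1.14. Cpt2, which hands acyl groups to the mitochondrial matrix, fell 7.36-fold and 7.38-fold (limma adjusted p = 0.00974 and 1.2e-05). Acadl and Decr1 fell 5.94-fold and 5.36-fold in NIC pools (limma adjusted p = 0.0313 and 0.0146), and Etfdh and Acadm 6.75-fold and 6.60-fold in KI tumours (5.5e-05 and 0.000441), with the second Etfdh probe at −0.21. In KI against NIC, 2 were lower: Ech1, 2.00-fold (limma adjusted p = 0.0107), and Ppargc1a, a coactivator, 1.73-fold (0.0302; 0.10 after quantile normalization).

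Milk and lactation genes were mostly not called. Of 18, 2 were lower and 1 higher in NIC pools, 3 lower and 2 higher in KI tumours, and 1 lower in KI against NIC. Under equal-spread scaling 4 were higher and 1 lower in NIC pools, with the median turned from −0.29 to 0.72, and 3 higher and none lower in KI tumours. Lalba, α-lactalbumin, rose 8.77-fold and 4.47-fold (limma adjusted p = 0.0138 and 0.0348). Glycam1, a milk mucin, fell 24.2-fold in NIC pools (limma adjusted p = 0.00776), and Plin2, the coat of milk fat droplets, 2.39-fold (0.0467; 0.387 under equal-spread scaling, 0.0622 after quantile normalization). In KI tumours Spp1 rose 4.21-fold (limma adjusted p = 0.00393) and Csn3, κ-casein, fell 2.5-fold (0.00299), a difference that turned to 0.28 under equal-spread scaling. Prlr, the prolactin receptor, was 1.80-fold lower in KI than in NIC (limma adjusted p = 0.0112). A gene that was not called is not thereby shown to be unchanged, since the glands lay far apart in some of these genes. Wap was at −0.21 and 3.24 in the normal glands and Csn2 at 4.61 and 7.23, whereas Csn1s1 was at 5.87 and 5.44.

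Markers of the tissue's cell types moved along the same contrast. Of 20 white adipocyte markers, 14 were lower in NIC pools and 17 in KI tumours, none was higher, and the list's median level was 3.70 and 3.37 in the normal glands against −0.022 to 0.334 in all tumours. Under equal-spread scaling 14 were lower and 1 higher in NIC pools and 15 lower in KI tumours, and the median differences moved from −3.07 to −1.89 and from −3.20 to −1.94. Plin1, of the fat droplet, was at 2.73 and 2.995 in the glands and −0.12 to 0.31 in tumours (limma adjusted p = 0.00909 for NIC and 1.4e-05 for KI). Adipoq, adiponectin, was at 3.88 and 2.69 in the glands, 2.24 and 0.00062 in the NIC pools, and 0.50, 0.78, 2.49, 0.051 and 1.45 in the KI tumours, and its differences did not pass (limma adjusted p = 0.19 and 0.057). Of 10 brown adipocyte markers, 5 and 7 were lower, with list medians of 3.06 and 1.75 in the glands and −0.029 to 0.163 in tumours. Under equal-spread scaling 3 were lower and 1 higher in NIC pools and 7 lower in KI tumours, and the median differences moved from −1.43 to −0.389 and from −1.74 to −0.863. Ucp1, which defines brown fat, was at 4.14 and 3.56 in the glands and −0.10 to 0.22 in tumours. Other adipocyte markers, chosen after their values were seen, lay above the reference in some or all tumours. Cidea was at 4.87 and 4.21 in the glands, 2.09 and 2.46 in the NIC pools and 1.15 to 4.04 in the KI tumours, and Cox8b was at 3.46 and 3.31 in the NIC pools but −0.044 to 0.987 in the KI tumours. Fabp4, a fatty acid binding protein, was at 2.70 and 1.99 in the glands and 1.77 to 3.86 in tumours, and Cfd, adipsin, reached 4.99 in NIC pool 1 and 6.18 in KI 3.

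Luminal epithelial markers went the other way. Of 16, 11 were higher in NIC pools and 14 in KI tumours, none lower, and the list's median was 0.62 and 0.80 in the glands and 2.58 to 3.05 in tumours. Epcam was at −0.09 and −1.51 in the glands and 2.33 to 3.16 in tumours, Krt8 at −0.76 and −0.15 against 1.10 to 2.29, and Krt18 at −0.48 and 0.15 against 0.90 to 2.09. Epithelial markers were not all low in the glands: Cdh1, E-cadherin, was at 4.86 and 4.95 there against 5.30 to 5.70 in tumours, and Krt19 was at 0.976 and 1.5, above both NIC pools (−1.90 and −0.094). None of the 10 fatty acid synthesis genes is on an adipocyte list, and 8 of the 191 pathway genes are, among them Cd36, Lpl, Pparg and Elovl3. As the lists were chosen, this does not say whether fat cells express the members. The part of fat cell content in the members' differences was not tested. Within the tumours the member median ran from 0.021 in KI 1 to 1.26 in KI 5, and the white adipocyte median from −0.022 in KI 4 to 0.334 in KI 3. A list median does not show how single markers varied, and Adipoq and Cfd ranged more widely among the tumours.

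Other markers were counted in the same way. In KI tumours the lower counts of fibroblast, endothelial and skeletal muscle markers lie near the share of all genes, 24.9%, and say little about these cell types. Proliferation markers were higher in 14 of 15 genes in NIC pools and in 15 of 15 in KI tumours (7 in each under equal-spread scaling). Fibroblast, endothelial and leukocyte markers were lower in 6 of 11, 6 of 10 and 4 of 12 genes in NIC pools and in 4, 3 and 6 in KI tumours, with none higher. Under equal-spread scaling these lower counts were 5, 3 and 5 in NIC pools and 2, 0 and 5 in KI tumours, 1 leukocyte gene was higher in KI tumours, and the endothelial median in KI against normal turned from −0.84 to 0.45. Myoepithelial markers were lower in 6 of 11 in NIC pools, and 5 lower and 2 higher in KI tumours (4 lower, and 2 lower and 2 higher, under equal-spread scaling). Skeletal muscle markers were lower in 3 of 10 in both. Between KI and NIC, calls in these lists were few, with 1 proliferation, 1 leukocyte, 1 myoepithelial and 1 muscle gene higher, 2 luminal genes and 1 white adipocyte gene higher, and 3 brown adipocyte genes lower. After quantile normalization none of the proliferation, leukocyte and muscle genes was called there.

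**Figure D5:**
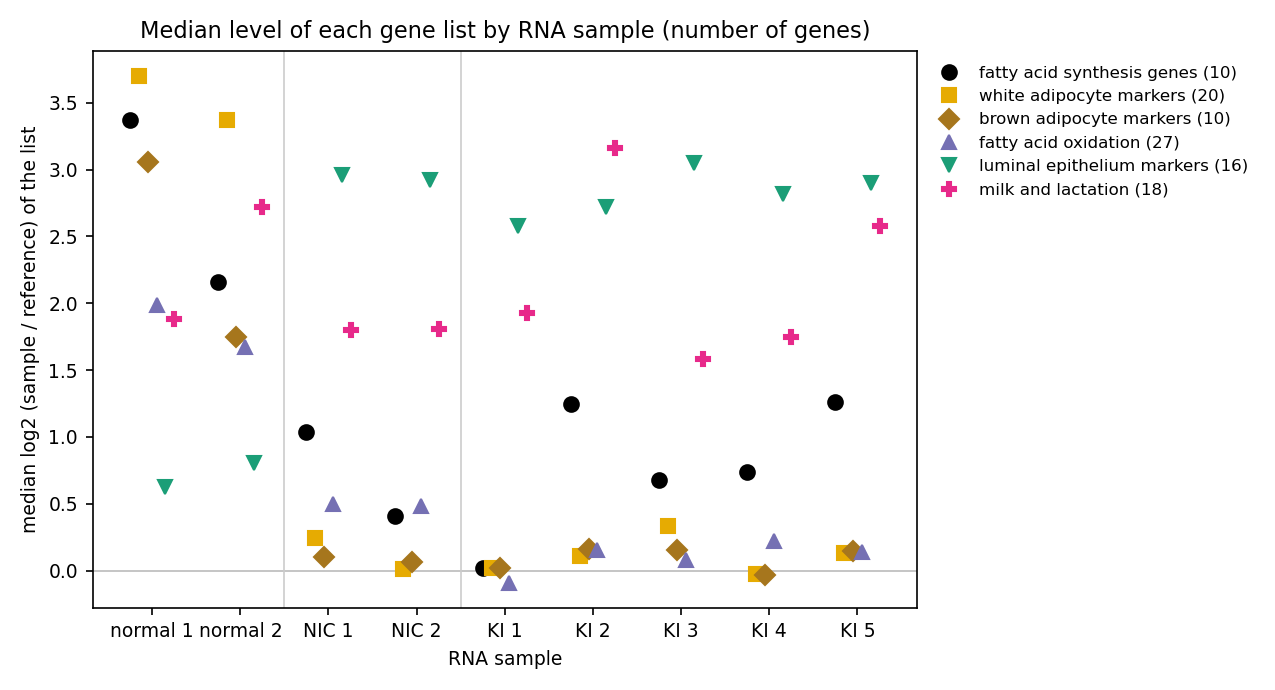
Median log2 ratio of sample over reference (vertical axis) of 6 gene lists in each RNA sample (horizontal axis), with the number of genes in the legend. The adipocyte and fatty acid oxidation medians are high in the glands and near 0 in tumours, luminal markers run opposite, and the fatty acid synthesis median in tumours lies between 0.021 (KI 1) and 1.26 (KI 5).

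Genes with the pattern most like the members over the 9 RNA samples were listed by Pearson's r, as a description, among 9889 named genes whose levels spanned at least 1 log2 unit. The 9 samples fall into 3 groups, which any such r reflects. Slc25a1 ran closest to Mmd2 (r = 0.996), Glra3 and Vmn1r27, Elovl6 to Vwa8 (0.989), Hadhb and Gnpat, and Fasn to Olfr78 (0.987), Klhl4 and Enpep. For Me1 the nearest were Hyal3 (0.983), Cox8b and Dhrs7, and for Acaca Ppargc1b (0.961), Pgd and Cycs. Thrsp was nearest Slco6c1 (0.959), and Srebf1 nearest Kdm1b (0.935), Glod4 and Dhrs4. Scd2 was most like Bcl6 (0.932), Oat and Gpm6b, and Acly like Ythdc2 (0.866), Slc25a3 and Herc2.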

How the data were processed

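Total RNA was amplified once and labelled with Cy3 or Cy5 per the labels' protocols. The authors deposited log2 ratios of sample over reference in value tables; direction and scale of the KI table were checked against the scanner files (r with the deposited log10 ratio at least 0.94), and those of the normal and NIC table were taken by analogy. RMA is named in the submitters' processing notes, with no role given. The KI scanner files hold deposited intensity values, spot flags with other codes and a log10 ratio from Agilent's Feature Extraction software, per the file headers. Dyes were taken from the label fields, which the labelling protocols of most KI arrays contradict.

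The 43790 spots, less 2256 control spots, were averaged to 41174 probes, and each gene was read from the probe brightest, on average, on the KI arrays. Probes were read at the same spot numbers in both tables, with names from the KI scanner files. Gene names in the normal and NIC table rest on that match. Comparisons used limma 3.58.1 in R 4.3.3 (lmFit, eBayes, two-sided, Benjamini-Hochberg over 28919 genes), tested on simulated data: NIC against normal on its own 4 samples, the others in 1 fit of all 9, where pools and single tumours share 1 estimate of the spread. Members and gene lists were chosen with earlier results of these data known. Named genes were all members, the up to 3 called genes of each pathway list with the largest difference per comparison (no gene named again for a comparison), and the 3 nearest genes by Pearson's r, of which those of Scd1 and some of Thrsp are not reported here. Alternatives covered probe choice, a signal filter, scaling, single dyes, the fit, scanner-based KI values (normexp offset 50, loess), image extraction day, and each RNA sample left out. Sequences and gene names came from RefSeq tables of GRCm38.p6.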

Additional observations from a re-analysis of the deposited data

Results flagged for a closer look

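Thrsp in KI 1 stood apart from the other 4 KI tumours. Its level there was 1.88, against 3.5 in the next lowest, and the gap was 0.765 of the whole range, above the critical 0.71 of Dixon's test for 5 samples. Chance marks about 1 in 20 such groups, and 10 genes were looked at. Both arrays of KI 1 gave a low value (1.99 in Cy5, 1.77 in Cy3).

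In the main fit, the difference of Me1 between tumour and normal gland was not the same in KI tumours and NIC pools. This gap did not pass after quantile normalization, nor on the second Me1 probe (limma adjusted p over all probes 0.0688). KI minus NIC was −1.58 ± 0.26 on the log2 scale (limma adjusted p = 0.0172), all 5 KI tumours were below both NIC pools, and the KI table and group cannot be told apart.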

How the results depend on the processing

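The spread of the glands rests on 2 samples, and dye gaps were wide in them. Leaving out a sample can leave a group with 1, which the fit then assumes to vary like the other groups. In NIC against normal (3 genes called), 5 were called on Cy5 arrays and 1 on Cy3 arrays, and 0 to 6 with a sample left out. With either NIC pool left out, 0 of the 10 and 0 of all genes passed limma's adjusted threshold, while 4 and 3 of the 10 and 6402 and 6977 of all genes had an unadjusted p under 0.05. Without normal gland 2 it was 6. In KI against normal (5 called), 3 were called with arrays scaled to 1 median absolute deviation and 3 on Cy3 arrays; leaving out a sample gave 4 or 5. In KI against NIC (1 called), 2 were called with the RNA sample as a random block, with scanner intensities or with the Feature Extraction log ratio, and Srebf1 was the added gene. It was 0 after joint quantile normalization (limma; 2 of the 10 and 5717 of all genes at an unadjusted p under 0.05), and 0 to 1 with a sample left out, 0 without either NIC pool (2 of the 10 at an unadjusted p under 0.05 in both cases). Scaling to 1 median absolute deviation gave 2 higher and 2 lower in NIC against normal, where 1 and 2 were called before. Leaving out the KI arrays of the smaller image extraction day changed no count of members called. Over these alternatives the share of all genes called ran from 0 to 36.8% in NIC against normal, 28.1 to 47.2% in KI against normal and 1.75 to 13.9% in KI against NIC.

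Some differences changed sign. Scaling turned NIC against normal to 0.46 for Scd1, 0.45 for Me1 and 1.13 for Thrsp (limma adjusted p = 0.0194), KI against normal to 1.19 for Thrsp and 0.36 for Srebf1, and KI against NIC to 0.065 for Thrsp. Quantile normalization gave −0.064 for Acly in KI against normal and 0.135 for Thrsp in KI against NIC. Cy5 arrays alone gave −0.70 for Acly in KI against normal. Cy3 arrays alone gave 0.50 for Scd1 in NIC against normal and 0.12 for Slc25a1 in KI against NIC. With a sample left out, NIC against normal ran from −3.69 to 0.50 for Acly and from −0.18 to 1.02 for Scd2, and KI against normal from −2.05 to 2.14 for Acly. KI against NIC then ran from −0.23 to 0.435 for Fasn, from −0.089 to 0.045 for Slc25a1 and from −0.41 to 0.12 for Thrsp. The causes were not tested. KI against normal was called in all 21 alternatives for Elovl6, Me1 and Slc25a1, and Acaca in 15. No paired analysis was possible because the replicate numbers pair no samples across groups.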
